A study of Mus musculus with 48 samples.

Results

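Microglia and macrophages were selected on their transcripts from single-cell RNA sequencing of the mouse hypothalamus at embryonic day E18.5. A cell was counted as a member when it held at least 1 unique molecular identifier (UMI, 1 counted transcript) of at least 3 of 9 genes, namely *C1qa*, *C1qb*, *C1qc*, *Csf1r*, *Cx3cr1*, *Tyrobp*, *Fcer1g*, *Mrc1* and *Pf4*. This found 116 of 14121 cells (0.821%, exact 95% binomial interval 0.679 to 0.984%). Of the members, 85 held a UMI of *Mrc1* or *Pf4* and were counted as border macrophages by the rule, and the remaining 31 were counted as microglia. The levels of the 9 genes chose the cells and are given as a description, with no test.

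The study asked what loss of *Eed*, a core subunit of Polycomb repressive complex 2 (PRC2), does to the developing hypothalamus. Control embryos carried the floxed *Eed* allele alone (*Eed* fl/fl), and *Eed-cKO* embryos carried the same floxed allele with *Sox1-Cre*, which is expressed in the neural lineage. The 6 control embryos gave 22 libraries and the 9 *Eed-cKO* embryos 26, and each embryo counted as 1 replicate. In each group 4 embryos were male and the rest female. No name prefix in the sample titles held both genotypes (4 control and 6 *Eed-cKO* prefixes), and some embryos shared a prefix. Genotype and prefix therefore cannot be told apart. Members came from 37 of the 48 libraries, 52 of them among 7186 control cells and 64 among 6935 *Eed-cKO* cells. Libraries held 163 to 1207 cells and 576432 to 4513505 UMIs. The median member had 3291.5 UMIs, against 4553 in the other cells.

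Microglia and border macrophages derive from yolk sac progenitors that enter the brain during embryonic life, not from the neural plate. Microglia settle in the parenchyma, where they clear dying cells and debris and depend on signalling through the receptor CSF1R, whereas border macrophages sit in the meninges, around vessels and in the choroid plexus. C1q, the first component of the classical complement pathway, is made largely by these cells in the brain. PRC2 places the repressive mark H3K27me3, which keeps *Hox* genes silent in the forebrain.

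The promoters of the genes that define the cells are shown first, since *Mrc1* and *Pf4* make the split and the *C1q* genes were among the most widely detected in members. The 250 bases upstream of the RefSeq start sites (GRCm38.p6) are printed 5′ to 3′ on the gene's strand, with the letters GAGGAA, the purine-rich core bound by the myeloid factor PU.1 (encoded by *Spi1*), or their reverse complement TTCCTC in capitals. They lie at chr4:136886201-136886450 (minus strand), chr2:14229164-14229413 (plus strand) and chr5:90772185-90772434 (plus strand).
C1qb: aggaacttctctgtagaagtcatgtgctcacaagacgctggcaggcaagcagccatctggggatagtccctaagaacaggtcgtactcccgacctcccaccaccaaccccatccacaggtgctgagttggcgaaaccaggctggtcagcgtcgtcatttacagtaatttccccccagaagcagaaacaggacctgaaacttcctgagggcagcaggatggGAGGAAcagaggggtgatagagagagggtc
Mrc1: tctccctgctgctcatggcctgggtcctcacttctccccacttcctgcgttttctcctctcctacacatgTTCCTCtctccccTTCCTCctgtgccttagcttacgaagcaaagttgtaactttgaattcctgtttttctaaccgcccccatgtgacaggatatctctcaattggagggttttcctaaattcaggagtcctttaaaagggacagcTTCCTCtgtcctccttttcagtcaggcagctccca
Pf4: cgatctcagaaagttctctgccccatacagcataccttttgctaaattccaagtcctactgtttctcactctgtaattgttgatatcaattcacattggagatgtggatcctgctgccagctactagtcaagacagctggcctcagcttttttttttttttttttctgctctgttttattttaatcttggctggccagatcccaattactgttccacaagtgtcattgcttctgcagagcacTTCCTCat
The letters GAGGAA were found on either strand in 4 of the 6 promoters of the 9 genes that RefSeq's table held (*C1qb*, *C1qc*, *Mrc1* and *Pf4*) and in 23.3% of all 32851 promoters. Of 7 letter strings searched, the others were GAGGAAGT (2 of 6, 2.44% of all promoters), AGGAAGT (4 of 6, 7.69%), GGAAGTGA (0 of 6, 2.62%), a 10-letter interferon response element (0 of 6, 0.207%), TGCTGA (1 of 6, 16.1%) and GTCTGAC (0 of 6, 2.36%). Several of these strings overlap one another. They describe these windows only.

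Most members carried the markers in full, and a group of cells stood apart. The number of the 9 genes per cell had 2 peaks: 84 members held at least 7 (45 control, 39 *Eed-cKO*) and 32 held 3 to 6. Just inside the threshold, 13 cells held exactly 3 of the genes, with 3 to 10 UMIs of them in all, and just outside it 17 cells held exactly 2. One of these 17 cells held 534 of the 598 *Pf4* UMIs found outside the members, together with 95 UMIs of *Ppbp*, 119 of *Gp9* and 73 of *Itga2b*, which are platelet and megakaryocyte genes.

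A total of 28 members also carried neuronal transcripts and are called mixed. In them the share of UMIs from 15 neuron markers was at least 0.5 times the median of the other cells (1.26%), with a median of 1.19%. Mixed members had a median of 11874 UMIs, against 2609 in the 88 members that were not mixed. There were 23 mixed members in *Eed-cKO* and 5 in control embryos. No doublet caller was run, and whether the mixed members were doublets or took up free RNA was not tested.

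Library 26 (*Eed-cKO*, embryo 3) stood apart from the others. It gave 18 members among 280 cells, where no other library gave more than 9, and 17 of the 18 were mixed and held only 3 to 6 of the 9 genes. In its non-members *Pf4* was detected in 5.73% of cells, against at most 1.98% in any other library. Counts of called genes are given with and without the mixed members and the members of this library. Across libraries, 101 cell barcodes occurred more than once, on 203 cells of which 2 were members.

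The 9 genes were detected widely in members and rarely elsewhere. The complement genes led: *C1qb* was found in 89.7% of members at 2302 CPM (UMIs of the gene relative to all UMIs of those cells) and in 0.271% of other cells at 0.568 CPM, and *C1qc* in 89.7% and 0.193%. *Csf1r*, the receptor for CSF1 and IL-34, was at 1803 CPM in members and 0.392 CPM elsewhere. The fractalkine receptor gene *Cx3cr1* was at 785 CPM, and the signalling adaptor genes *Tyrobp* and *Fcer1g* at 1442 and 1305 CPM. *Pf4*, a chemokine gene, reached 3137 CPM and the mannose receptor gene *Mrc1* 1972 CPM.

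Beyond the 9 genes, members were marked by myeloid genes, not all of them shared by both kinds. *F13a1* and *Lyve1* were found in 45.7% and 40.5% of members, and in none without a UMI of *Mrc1* or *Pf4*. The largest ratios to other cells were those of *F13a1* (coagulation factor XIII, 1515 against 0.731 CPM), the hyaluronan receptor gene *Lyve1* (1011 against 0.298 CPM) and *Ly86* (MD-1, a partner of a Toll-like receptor homologue, 970 against 0.257 CPM). The chemokine genes *Ccl3* (1883 CPM), *Ccl4* (1351 CPM), *Cxcl2* (862 CPM) and *Ccl2* (737 CPM), the protease gene *Ctss*, the receptor genes *Fcrls*, *Fcgr3*, *Trem2* and *P2ry12*, the perforin-like *Mpeg1*, and *Laptm5* and *Cd53* completed the leading 15. Myeloid transcription factors were present: *Spi1* was at 154 CPM against 0.135 CPM, *Irf8* at 145 against 1.48 CPM and *Maf* at 821 against 21.8 CPM.

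Markers of other blood cells were low in members, though some were higher there than in other cells. Of 7 such genes in the table, the monocyte gene *Ly6c2* and the neutrophil genes *S100a8*, *S100a9* and *Ngp* were at 0 in members. The 18 genes of that list, 7 of them measured, summed to 75.3 CPM in members and 13.9 CPM in other cells. The B cell receptor component *Cd79b* gave 37.6 CPM of the sum in members. Of the 7 genes, 3 were over 2-fold higher and 1 over 2-fold lower in members (CPM plus 1). Antigen presentation genes of class I were high (*B2m*, 2333 CPM), whereas the class II gene *H2-Ab1* was at 20.5 CPM.

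The Mrc1/Pf4 split separated 2 programmes, but a single UMI placed some cells on the side that the rest of their transcripts did not share. Apart from the 2 genes themselves, positive members had the higher levels of *F13a1* (1827 against 0 CPM), *Lyve1* (1219 against 0), *Dab2* (an endocytic adaptor, 1198 against 60.2), the monocyte-attracting chemokine gene *Ccl7* (532 against 0), the haemoglobin scavenger receptor gene *Cd163* (322 against 0), *Ccl24*, *Msr1*, *Fcna*, *AI607873* and *Colec12*. Negative members had the higher levels of *Sparc* (1655 against 272 CPM), the ADP receptor gene *P2ry12* (1113 against 210), *Siglech* (351 against 41.2), *Olfml3* (291 against 41.2), *Abcg1* (a cholesterol exporter, 522 against 90.7), *Lair1*, *Pros1*, *Slc12a2* and *Lpcat2*. These values chose the named genes and carry no test.

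A second description summed 8 microglia genes (among them *Sparc*, *P2ry12*, *Sall1*, *Tmem119*, *Siglech*, *Gpr34*, *Olfml3*) and 7 macrophage genes (*Pf4*, *Mrc1*, *Lyve1*, *F13a1*, *Cd163*, *Cbr2*, *Ms4a7*) in each cell. Among the 88 members that were not mixed, 46 had more UMIs of the macrophage genes and 41 more of the microglia genes. All 46 macrophage-gene cells were Mrc1/Pf4-positive, with a median of 19.5 *Mrc1* and 30 *Pf4* UMIs. Of the 41 microglia-gene cells, 25 were negative and 16 positive, the latter with at most 12 *Mrc1* and 6 *Pf4* UMIs. *Sall1*, a transcription factor gene that marks microglia, was at 276 CPM in microglia-gene cells and 12.7 CPM in macrophage-gene cells. *Tmem119* was at 243 CPM in the former and at 0 in the latter. Both genes are among the 8, and *Mrc1* and *Pf4* are among the 7. These values therefore describe the assignment of the cells, give no separate evidence of their identity and carry no test.

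**Figure D1:**
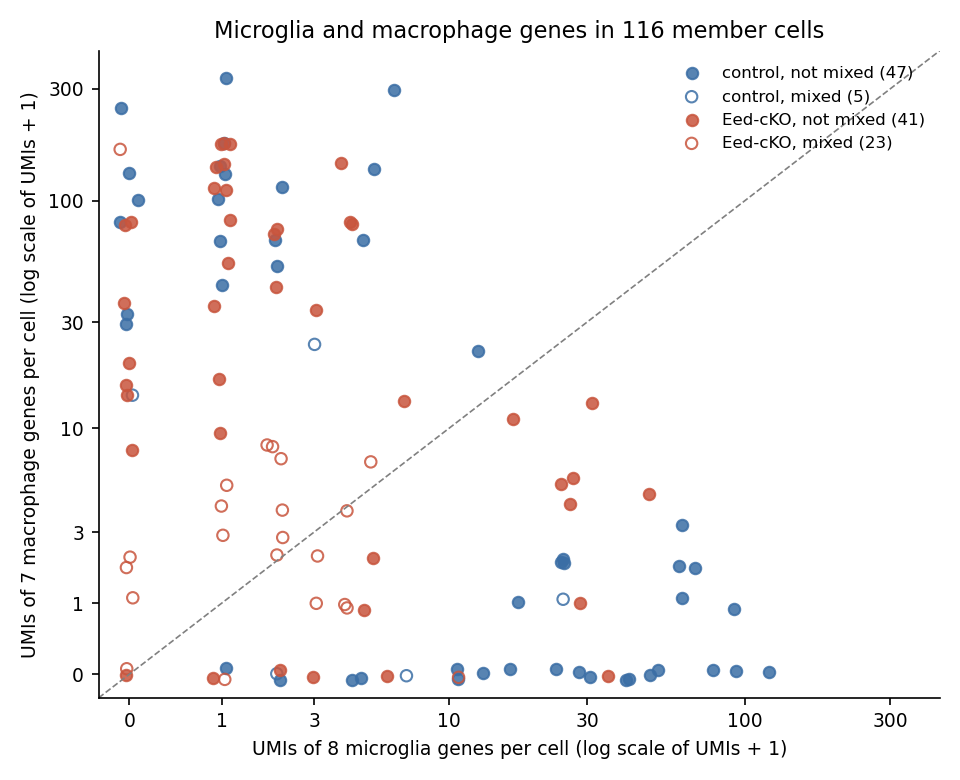
UMIs of 8 microglia genes (x axis) and 7 macrophage genes (y axis) in each of the 116 members, both on a log scale of UMIs + 1 with a small random shift; filled circles are members that were not mixed, open circles mixed members, blue control, red *Eed-cKO*, and the dashed line marks equal UMIs. Filled cells form an arm along each axis, 46 above the line and 41 below it, and most open cells have few UMIs of either list.

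Of 14 genes of complement and Fc receptors, 3 were over 2-fold higher and 1 over 2-fold lower in macrophage-gene than in microglia-gene cells, with a median log2 ratio of -0.05, against -0.11 over all genes compared. *C1qb* was at 4985 CPM in microglia-gene and 4094 CPM in macrophage-gene cells, and *C3ar1* at 567 and 513 CPM. *Apoe* was also alike at 14394 and 13157 CPM. Lysosomal genes were higher in microglia-gene cells, where the list of 20 summed to 46928 CPM against 21345 CPM. Cytokine and chemokine genes summed to 9920 CPM in microglia-gene and 22473 CPM in macrophage-gene cells. Interferon response genes summed to 421 and 2301 CPM. These are pooled counts over embryos, with no test.

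Many members carried transcripts of dividing cells. *Mki67* or *Top2a* was detected in 21 members (18.1%; 13 of them not mixed) and in 3.03% of other cells. The part of free RNA in these shares was not tested. UMIs of at least 2 of 19 cycling genes were present in 47.4% of members and 15.02% of other cells. Of the 55 such members, 20 were mixed. With members thinned to 1000 UMIs, this share averaged 16.4% over control and 21.4% over *Eed-cKO* embryos with at least 3 members. *Top2a*, the topoisomerase of dividing cells, was at 259 CPM in microglia-gene cells, 133 CPM in macrophage-gene cells and 23.6 CPM in other cells. Among the members with *Mki67* or *Top2a*, 7 were control and 14 *Eed-cKO*.

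The share of members did not differ detectably between genotypes. In control embryos it ran from 0.288% of all cells, with a median of 0.749%, to 1.01%. In *Eed-cKO* embryos it ran from 0.377%, with a median of 0.736%, to 2.53%. The ranges overlapped, and the highest value was embryo 3, which holds library 26. The means were 0.731% ± 0.283 (SD, n = 6) and 0.869% ± 0.674 (SD, n = 9), with an adjusted p of 0.818 over the 5 shares compared (exact two-sided permutation test over 5005 splits of the embryos). Without the mixed members the means were 0.666% and 0.568%, and without library 26 they were 0.731% and 0.698%, so the direction rested on those cells.

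The 2 kinds told by *Mrc1* and *Pf4* gave differences in opposite directions that did not pass. Negative members made up 0.288% ± 0.177 (SD, n = 6) of control cells and 0.176% ± 0.203 (SD, n = 9) of *Eed-cKO* cells, with none found in 1 control and 3 *Eed-cKO* embryos (exact permutation, adjusted p = 0.604). Positive members made up 0.443% ± 0.281 (SD, n = 6) and 0.693% ± 0.686 (SD, n = 9) (exact permutation, adjusted p = 0.604). Among the members of the 13 embryos with at least 3, the positive share was 60.8% ± 30.9 (SD, n = 6) in control and 84.3% ± 17.8 (SD, n = 7) in *Eed-cKO* (exact permutation, p = 0.125, adjusted p = 0.604). The cycling share of members was 48.0% ± 18.7 (SD, n = 6) and 37.6% ± 30.3 (SD, n = 7) (exact permutation, adjusted p = 0.604). Values for each embryo overlapped in all of these comparisons.

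**Figure D2:**
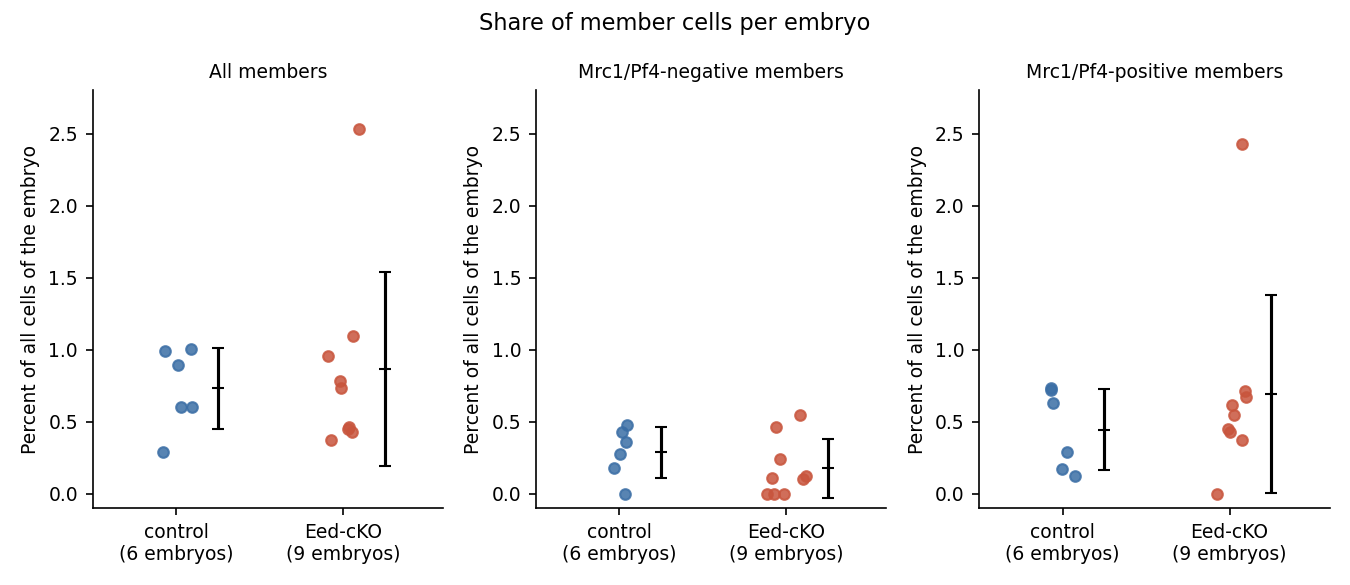
Share of all cells of an embryo (percent, y axis) that were members, Mrc1/Pf4-negative members and Mrc1/Pf4-positive members; each point is 1 embryo (6 control, 9 *Eed-cKO*), and black bars give the mean and SD. The genotypes overlap in each panel, and 1 *Eed-cKO* embryo lies at 2.53% in the first panel and at 2.43% in the last.

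Border macrophages live in the meninges, so the share of Mrc1/Pf4-positive members was set beside that of leptomeningeal cells. Of the 85 positive members, 62 were not mixed, and 46 of these were macrophage-gene cells, whose share was not correlated. Leptomeningeal cells were those with at least 3 of 10 leptomeningeal fibroblast markers. They made up 0 to 3.59% of control and 2.76 to 11.3% of *Eed-cKO* embryos. Over the 15 embryos the 2 shares gave Pearson's r = 0.514 (permutation p = 0.0375) and Spearman's rho = 0.454 (permutation p = 0.0923). Without the 2 embryos farthest from the median of the leptomeningeal share r was 0.732 (permutation p = 0.0048). Within control embryos r was 0.946 (n = 6, permutation p = 0.00989) and within *Eed-cKO* embryos 0.471 (n = 9, permutation p = 0.202). The call was lost when any 1 of control embryos 3, 4 and 5 or *Eed-cKO* embryos 3 and 9 was left out (permutation p = 0.052 to 0.159). Of 10 leptomeningeal genes tested in the other cells 8 rose in *Eed-cKO* (median log2 fold change 1.70), against 1971 of all 12810 genes tested there. The share of leptomeningeal cells thus moved with genotype as well, and dissection and genotype cannot be told apart in the share of Mrc1/Pf4-positive members.

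Expression was compared between genotypes in the summed counts of members for the 6 control and 7 *Eed-cKO* embryos with at least 3 members, which leaves out *Eed-cKO* embryos 6 and 9. These sums held 13950 to 243452 UMIs. Of 7421 genes tested, 18 passed (0.243%; 4 higher and 14 lower in *Eed-cKO*; edgeR's quasi-likelihood test, Benjamini-Hochberg adjusted p under 0.05). Without library 26 none of 5192 genes passed (262 at an unadjusted p under 0.05, against 540 with it; DESeq2 called 13 on all members), and without the mixed members 16 of 3843 passed, 11 of them among the 18. A fall in a sum can come from fewer cells of a kind or from less RNA per cell. In a sum over both kinds of cell these cannot be told apart. The RNA of mixed members also counts in these sums. They held 259782 of the 374439 UMIs of all *Eed-cKO* members and 42454 of the 210217 of control members. *C1qb*, a rule gene given no test, averaged 4472 CPM in control and 2689 CPM in *Eed-cKO* members. The part of mixed members in the falls was not tested beyond the fit without them.

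Microglia and lysosome genes were among the falls. *Olfml3*, a secreted glycoprotein gene of microglia, was at 172 to 306 CPM (median 226) in control embryos and at 0 to 171 CPM in *Eed-cKO* embryos, with 4 of the 7 at 0. The genotypes did not overlap, and *Olfml3* changed by -2.95 ± 0.71 (log2, SE; edgeR, adjusted p = 0.0285), or -2.27 (edgeR, adjusted p = 0.154) without the mixed members. *Ly86* was at 967 to 4700 CPM (median 2492) in control and 177 to 1299 CPM (median 533) in *Eed-cKO* embryos, which is -2.10 ± 0.41 on the log2 scale (SE; edgeR, adjusted p = 0.00242).

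The lysosomal protease genes *Ctsd* and *Ctsl* also fell. *Ctsd* was at 3224 to 14191 CPM (median 4580) in control and 511 to 4443 CPM (median 1190) in *Eed-cKO* embryos. Its log2 fold change was -1.91 ± 0.39 (SE; edgeR, adjusted p = 0.00453). *Ctsl* was at 1048 to 3411 CPM and 0 to 1538 CPM, or -1.87 ± 0.43 (log2, SE; edgeR, adjusted p = 0.0185). The control range was reached by 1 *Eed-cKO* embryo for *Ctsd* and by 2 for *Ctsl*.

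*Abcg1* and 2 more genes of a list for the activated state of early postnatal microglia, which also holds *Ctsl*, fell as well. *Abcg1*, which is on no list used here, was at 188 to 1213 CPM (median 304) in control and 0 to 171 CPM (median 89.6) in *Eed-cKO* embryos. The genotypes did not overlap, and the log2 fold change was -2.74 ± 0.57 (SE; edgeR, adjusted p = 0.00473). The tetraspanin gene *Cd9* was at 201 to 1130 CPM and 0 to 269 CPM (log2 fold change -2.87 ± 0.57, SE; edgeR, adjusted p = 0.00327). *Spp1*, which encodes osteopontin, was at 0 to 3391 CPM (median 437) and 0 to 215 CPM (log2 fold change -3.85; edgeR, adjusted p = 0.00119), and 54 of its 110 control UMIs came from 1 cell of embryo 3. *Abcg1*, *Cd9* and *Ly86* had an adjusted p of 0.0704 each without library 26, with the same direction.

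The other falls were of mixed kinds. The chemokine gene *Ccl6* was at 148 to 1175 CPM in control and 0 to 179 CPM in *Eed-cKO* embryos (edgeR, adjusted p = 0.00456), and 50 of its 83 control UMIs came from 1 cell of embryo 1. *Socs3*, a feedback inhibitor of cytokine signalling, had 19 control UMIs and 1 *Eed-cKO* UMI, a ratio of 32.8 (exact 95% interval 5.21 to 1362, counting error only; edgeR, adjusted p = 0.02). *Slc16a3*, a lactate transporter gene, had 21 and 1, a ratio of 36.2 (exact 95% interval 5.83 to 1498; edgeR, adjusted p = 0.0238). Without the mixed members neither passed (edgeR, adjusted p = 0.229 for *Socs3* and 0.16 for *Slc16a3*). *Rps13*, a ribosomal protein gene and the remaining called fall, was named after its values were seen, and it fell in members (log2 fold change -2.05) and in the other cells (-1.08).

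*Npy* and *Agrp*, the neuropeptide genes of the arcuate nucleus, passed on the transcripts of a single cell. All 224 control *Npy* UMIs and all 23 *Agrp* UMIs of members were in 1 mixed cell of control embryo 6, which held 11825 UMIs and 3 of the 9 genes. No member of the tested *Eed-cKO* embryos had *Agrp*, so its pooled level was at least 13.2-fold lower, taking 3 UMIs over the group as the floor. Neither gene was tested without the mixed members.

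The 4 rises rested on few cells or on mixed members. *Igf2* (93 *Eed-cKO* and 2 control UMIs, a ratio of 27.0, exact 95% interval 7.26 to 226) and *Col1a2* (49 and 1, a ratio of 28.4, exact 95% interval 4.87 to 1145) are genes of leptomeningeal fibroblasts. Of these UMIs, 69 of *Igf2* and 38 of *Col1a2* were in 1 microglia-gene cell of *Eed-cKO* embryo 7 with 12324 UMIs, which also held all 20 *Col3a1* UMIs of the *Eed-cKO* members. *Zic1*, a transcription factor gene of the meninges and of neural cells, was at 0 in every control embryo and at least 9.86-fold higher in *Eed-cKO*, with the floor at 3 UMIs over the group, and was not tested without the mixed members. *Ndn*, an imprinted gene high in hypothalamic neurons, rose by 2.22 on the log2 scale (edgeR, adjusted p = 0.0317), and without the mixed members its log2 fold change was 0.70 (edgeR, adjusted p = 0.975).

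**Figure D3:**
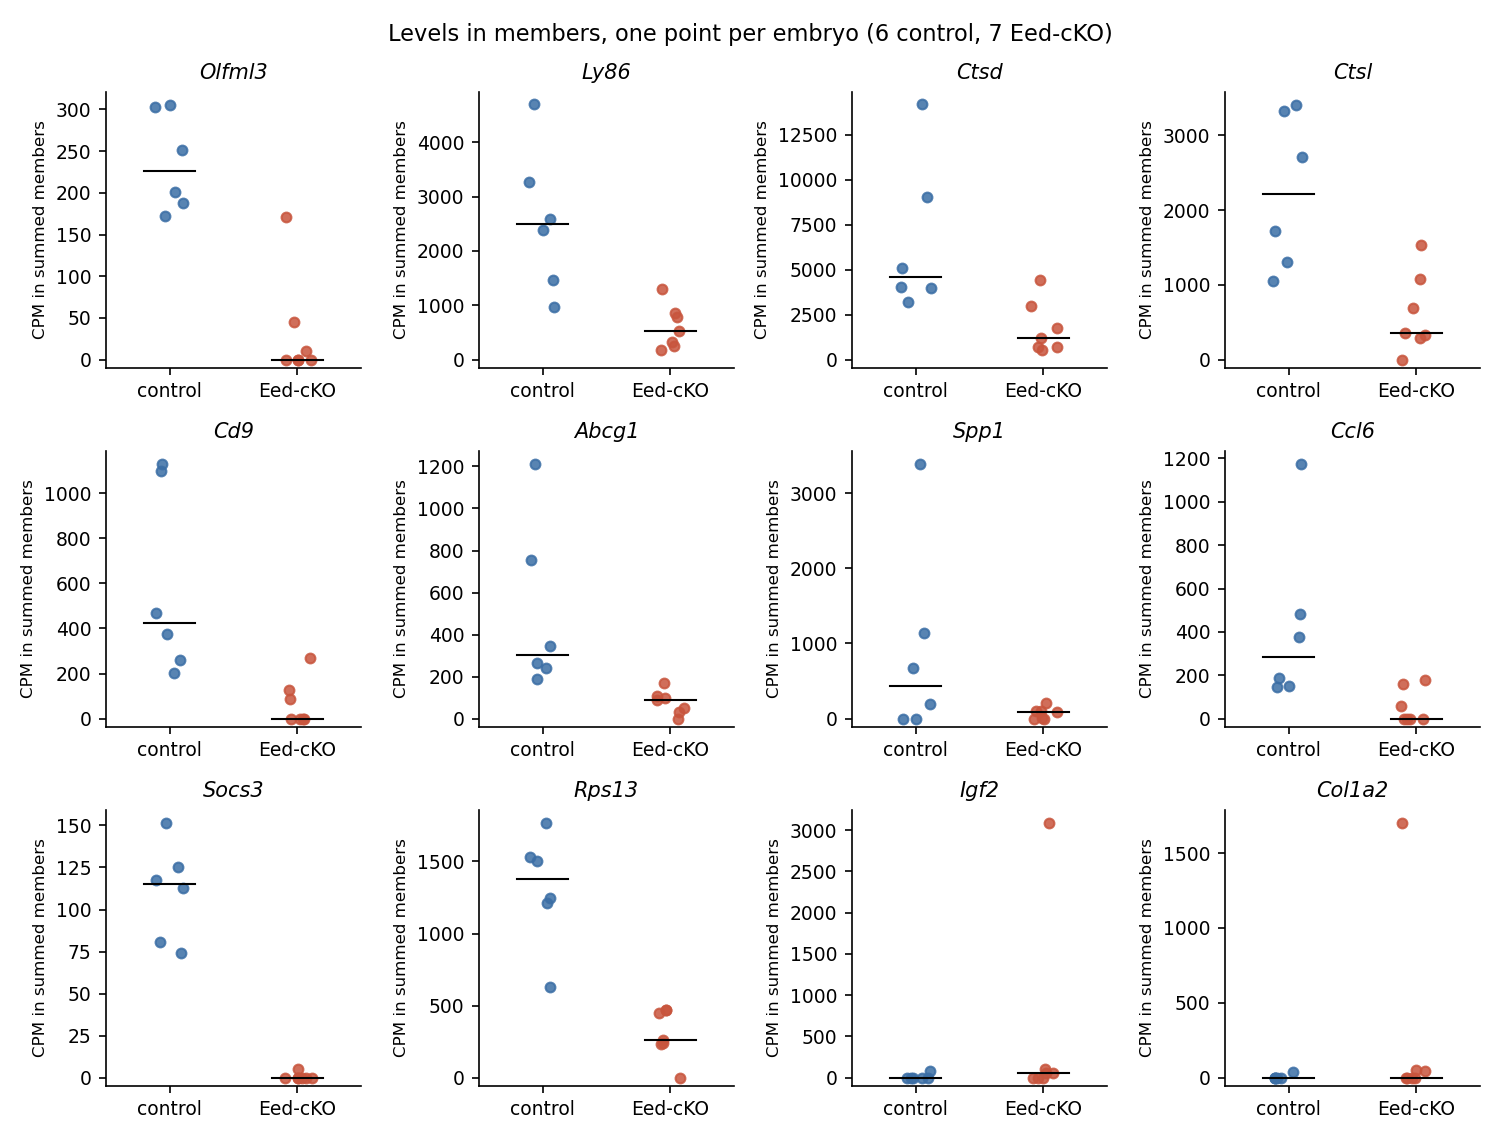
CPM in the summed members of each embryo (y axis, linear and starting near 0) for 12 of the 18 genes that passed in members; each point is 1 embryo (6 control in blue, 7 *Eed-cKO* in red) and the black line is the median. *Olfml3*, *Abcg1*, *Socs3* and *Rps13* do not overlap between genotypes, and the rise of *Igf2* and *Col1a2* is carried by 1 *Eed-cKO* embryo.

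Over all 7421 genes, 17 (0.229%) did not overlap between genotypes, 14 of them lower in *Eed-cKO*. Of 20 microglia identity genes, 2 fell, among them *Olfml3*, with a median log2 fold change of -1.50, against 0.01 over all genes tested. Of 19 lysosome genes, 3 fell, among them *Ctsd* and *Ctsl* (median -1.15), and of 16 activated-state genes 3 fell (*Spp1*, *Cd9*, *Ctsl*; median -0.96). None of 17 border macrophage genes (median -0.71) or 8 complement and Fc receptor genes (median -1.05) passed. *Ccl6* was the 1 of 14 cytokine and chemokine genes that passed (median 0.15), and *Igf2* and *Col1a2* were 2 of 3 leptomeningeal genes. Without the mixed members the medians were -0.82 for microglia identity and -0.74 for lysosome genes, against -0.19 over all genes tested. Markers of other cells lay on the other side: none of 15 neuron genes passed in all members, with a median of 0.74 and 2 below 0, nor did any of 9 astrocyte and radial glia genes (median 1.06). The neuron genes summed to 69.4 to 7091 CPM in the control and 293 to 10552 CPM in the *Eed-cKO* embryos tested, and without the mixed members the median of the 7 still tested was -0.18. Their part in the falls was not tested. The lists were chosen with earlier results of these data known.

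Of the members that were not mixed, 27 of 47 in control and 14 of 41 in *Eed-cKO* were microglia-gene cells, as pooled counts. By embryo the macrophage-gene share of these members was 43.1% ± 27.3 (SD, n = 6) in control and 62.2% ± 35.4 (SD, n = 7) in *Eed-cKO*, a difference that did not pass (exact permutation, p = 0.302, adjusted p = 0.614). Of the 14 falling genes, 10 were over 2-fold higher in microglia-gene than in macrophage-gene cells (CPM plus 10). This held for 1204 of the 7469 genes detected in at least 10% of members. Among the 10 is *Olfml3*, which helped to assign these cells, and what the overlap means for the falls was not tested. Within microglia-gene cells *Ctsd* was at 10170 CPM in control (854 UMIs) and 4720 CPM in *Eed-cKO* (186 UMIs) (log2 fold change -1.53; edgeR, adjusted p = 0.0894). That fit was added after the data were seen. It took every embryo with such a cell (6 control, 5 *Eed-cKO*), some with only 1. In it 6 of 1688 genes passed: *Abcg1* (-3.15) and *Spp1* (-5.04) fell, and *Igf2*, *Col1a2*, *Col3a1* and *Igfbp4* rose. The *Eed-cKO* microglia-gene cells held 39405 UMIs, 12324 of them in 1 cell of embryo 7. That cell held 69 *Igf2*, 38 *Col1a2* and 20 *Col3a1* UMIs, and its part in the rises was not tested. Within macrophage-gene cells, again over every embryo with such a cell (5 control, 8 *Eed-cKO*), 10 of 2165 genes passed. *Cxcl10*, an interferon-induced chemokine gene, rose (3.72). *Ccl6*, *Ifi27l2a*, *Rps13* and the neural genes *Mapt*, *Meg3*, *Nnat*, *Nts*, *Rtn1* and *Tuba1a* fell. The 20 control macrophage-gene cells held 83787 UMIs, 14789 of them in 1 cell of embryo 1. That cell had 0.527% neuron-marker UMIs, under the 0.631% that counts as mixed, and 50 of the 83 *Ccl6* UMIs of control members. Its part in these falls was not tested.

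The genotype difference was then set against that of all other cells of the same embryos. In the other cells 3582 of 12810 genes passed (28%; 1971 higher and 1611 lower). The test of the difference between members and other cells, with the embryo as a block, called 49 of 7421 genes (0.66%). One of them was *Pf4*, a gene of the rule, which is given no test. Of the remaining 48, 44 lay below 0 and 4 above it. Of the 44, 39 had risen in the other cells, and 9 of the 48 had passed in members. Without the mixed members 33 of the 48 passed, and without the members of library 26 the test called 18 genes. The non-members of library 26 stayed among the other cells in that fit. Of the 23 named genes that passed, 10 did so without those members (*Atf3*, *Cd9*, *Cebpb*, *Crybb1*, *Ctsd*, *Ctsz*, *Ier3*, *Olfml3*, *Socs3* and *Sparc*). The other 13 kept their direction without passing.

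Stress and early response genes made up part of this set. Of 20 immediate early genes, 17 rose in the other cells, whereas none of 19 passed in members (median log2 fold change -0.34). For 6 of them the difference itself passed. *Atf3*, a stress-induced transcription factor gene, was at 806 to 1649 CPM (median 1251) in control members and 294 to 854 CPM (median 362) in *Eed-cKO* members, which was -1.29 ± 0.40 (log2, SE; edgeR, adjusted p = 0.217). In the other cells it rose by 2.43 ± 0.27 (log2, SE; edgeR, adjusted p = 2.29e-06), a difference of -3.85 ± 0.50 (edgeR, adjusted p = 9.43e-08). The log2 fold change of *Atf3* in members was -0.59 (edgeR, adjusted p = 0.962) without the mixed members. It was -0.63 (edgeR, adjusted p = 0.993) without the members of library 26, and the difference passed in both cases. The others were *Egr2*, *Klf4*, *Ier3*, *Zfp36* and *Junb*, with differences of -3.89 to -2.01. *Zfp36*, which encodes an mRNA decay factor, averaged 1642 CPM in control members and 23.98 CPM in control other cells. *Klf4*, a transcription factor gene, was at 94.1 ± 119 CPM (SD, n = 6) in control members and 22.4 CPM in *Eed-cKO* members, against 30.8 and 71.4 CPM in the other cells, and its difference had an adjusted p of 0.0502 without the mixed members (edgeR).

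Microglia and lysosome genes were a second part. *Crybb1*, a crystallin gene of immature microglia, averaged 294 and 216 CPM in control and *Eed-cKO* members, and rose in the other cells by 4.21 ± 0.57 on the log2 scale from 0.338 CPM to 6.50 CPM (edgeR, adjusted p = 1.97e-05). The genotype difference was also lower in members than in other cells for *Sparc* (-3.21), *Olfml3* (-4.91), *Ctsd* (-2.46) and *Ctsl* (-2.18). The same held for *Ctsz* (-2.60), *Cd9* (-3.86), *Apoe* (-1.90), *Itgb5* (-2.45) and *Lgals1* (-2.31), as differences of log2 fold changes. They are not differences in level: *Ctsd* averaged 6599 CPM in control members and 137 CPM in control other cells. Without the mixed members the differences of *Apoe* (edgeR, adjusted p = 0.0748) and *Itgb5* (edgeR, adjusted p = 0.141) no longer passed. Among the transcription factors, *Cebpa* (-4.35) and *Cebpb* (-2.99) passed. *Abcg1* (-2.59), *Socs3* (-6.59) and *Slc16a3* (-5.58) passed below 0 as well, and *Ndn* (2.70) was a rise that was 0.58 (edgeR, adjusted p = 0.877) without the mixed members.

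**Figure D4:**
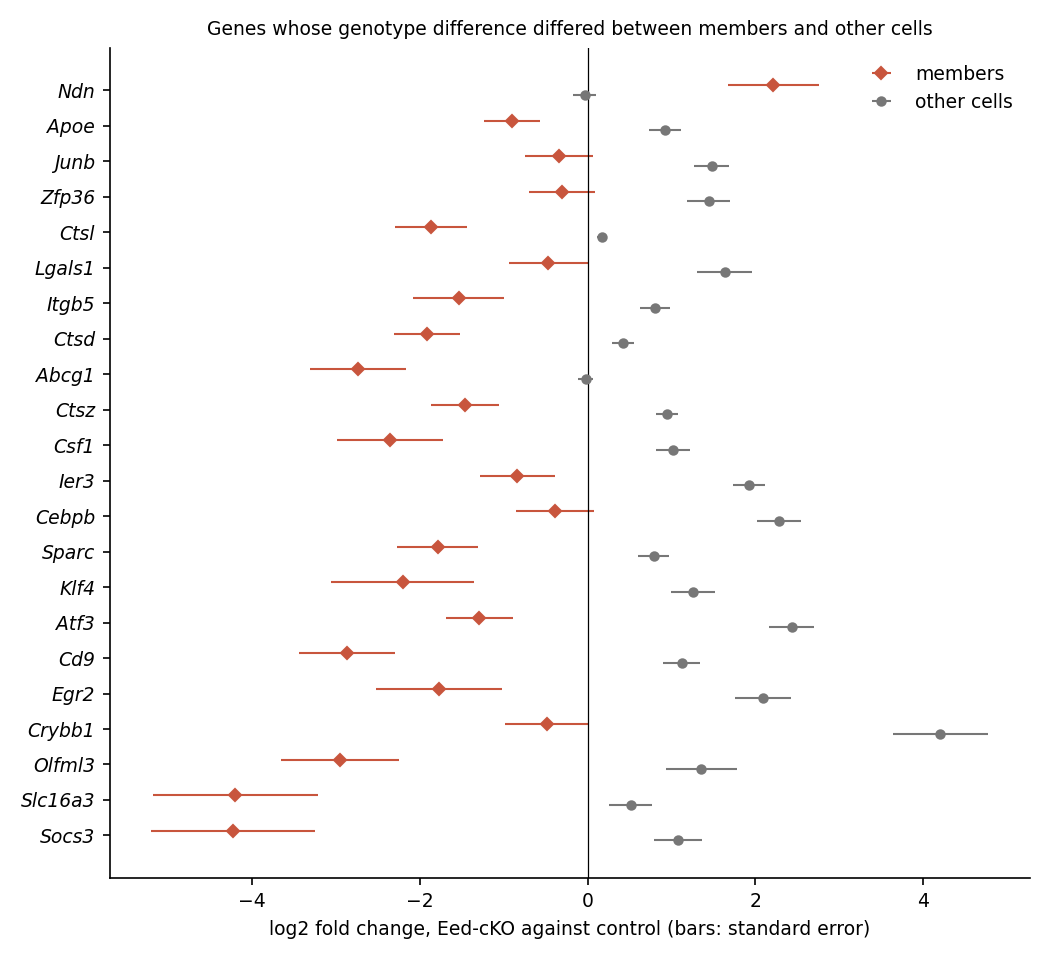
Log2 fold change of *Eed-cKO* against control (x axis; bars are standard errors) in members (red diamonds) and in other cells (grey circles) for 22 named genes whose genotype difference differed between the 2. All but *Ndn* lie further left in members, and *Crybb1* has the largest rise in other cells among them, 4.21.

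Signals that microglia need come mostly from their neighbours, and several changed in the other cells. Of 10 ligand genes tested there, 6 rose, against 1971 of all 12810 genes. They were *Csf1* (1.02 on the log2 scale), *Cxcl12* (1.48), *Tgfb2* (0.58), *Tgfb3* (1.47), and the bridging molecules *Gas6* (0.84) and *Pros1* (1.02). The other cells are 1 pool of all remaining kinds, whose leptomeningeal share moved with genotype. Whether any 1 kind of cell changed its ligand genes was not tested. The genes for the inhibitory ligands *Cd200* (-0.47) and *Cd47* (-0.50) fell. *Cx3cl1*, the fractalkine gene, gave 0.17 (edgeR, adjusted p = 0.14). On the receiving side none of the 10 tested receptor genes passed in members, among them *Tgfbr1* (-1.57) and *Tgfbr2* (-1.36). For *Csf1* the log2 fold change in members minus that in other cells was -2.97 (edgeR, adjusted p = 0.0216, or 0.0954 without the mixed members). Its level was higher in members, at 537 CPM against 8.21 CPM in control embryos. In control members 30 of its 65 UMIs were in 1 cell.

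PRC2 genes were measured at low counts in members. In control members 14 UMIs of *Eed* were counted, and 5 in those of *Eed-cKO* (log2 fold change -2.01; edgeR, adjusted p = 0.559), and -0.44 in the other cells (edgeR, adjusted p = 0.00053). The 3′ tag that was counted lies outside the deleted exons, so *Eed* counts do not check the deletion. None of 16 tested PRC2 and PRC1 genes passed in members.

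*Hox* transcripts were present in mixed *Eed-cKO* members and scarce in those that were not mixed. Over all *Eed-cKO* members, 23 of 64 held a *Hox* UMI (35.9%, exact 95% interval 24.3 to 48.9%), at 358 CPM. In the other *Eed-cKO* cells 44.0% (3024 of 6871) did, at 459 CPM. Thinned to 1000 UMIs the shares were 15.5% and 27.6%. Of the 41 members that were not mixed, 2 did (4.88%, exact 95% interval 0.596 to 16.5%), and 1 of 35 when thinned. These 2 cells held 14 UMIs in all, 12 of them in the cell of embryo 7 that also held *Igf2* and *Col1a2*. The pooled level was 122 CPM (exact 95% interval 66.8 to 205) against 459 CPM in other cells.

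Mixed *Eed-cKO* members were unlike the rest: 21 of 23 held a *Hox* UMI, at 462 CPM. In control embryos 1 of 52 members and 7 of 7134 other cells held one. By embryo, *Hox* transcripts of members that were not mixed were at 0 in 6 of the 8 *Eed-cKO* embryos that had such cells, at 70.6 CPM in embryo 3 and at 524 CPM in embryo 7, whereas other cells were at 380.0 to 545 CPM. The cell cycle inhibitor gene *Cdkn2a*, with a log2 fold change of 8.55 in the other cells, was at 0 in all members, and 3 counts would be 8.01 CPM in *Eed-cKO* members. The *Eed-cKO* members that were not mixed had a median of 2388 UMIs and the other cells 4389, and the part of depth beyond the thinned values was not tested.

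**Figure D5:**
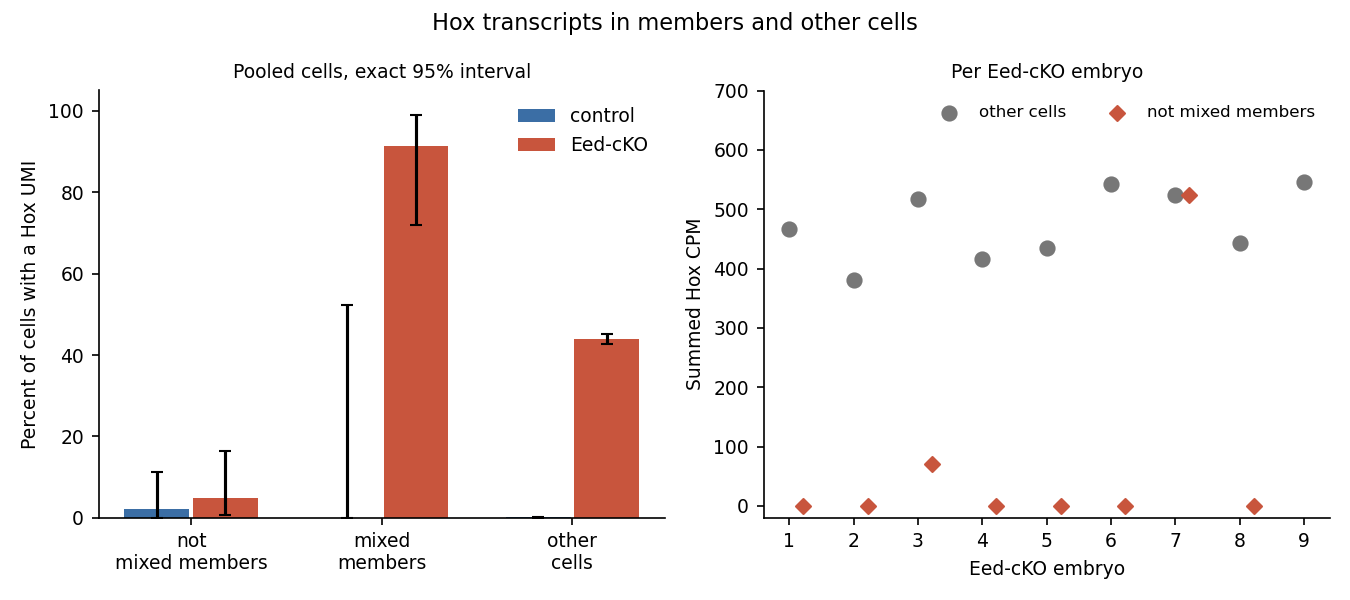
Left, percent of cells with at least 1 *Hox* UMI (y axis) in members that were not mixed, mixed members and other cells, pooled over embryos, with exact 95% intervals; right, summed *Hox* CPM (y axis) in members that were not mixed (red diamonds) and other cells (grey circles) of each *Eed-cKO* embryo. In *Eed-cKO* the share is 4.88% in the first class, 91.3% in mixed members and 44.0% in other cells. These classes differ in depth, with medians of 2388, 12214 and 4389 UMIs.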

How the data were processed

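Counts were from single-cell RNA sequencing of E18.5 hypothalamus, dissociated with papain, encapsulated on the ddSEQ system and made into SureCell 3′ libraries with UMIs. The authors deposited 1 table of raw UMI counts for 16510 genes in 14121 cells, already filtered for cell quality (the lowest total was 601 UMIs). Per the labels, reads were processed with STAR 2.5.2b and SAMtools 1.3 on mm10. Separate cells of an embryo are not replicates, so counts were summed per embryo, and embryos were identified from the sample titles.

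The members and gene lists were chosen with earlier results of these data known. R 4.3.3 was used, and edgeR 4.0.16 compared the sums (its quasi-likelihood test, TMM, Benjamini-Hochberg at 0.05) on genes that had 15 UMIs or more over the embryos and 2 or more in any of them; the further limit on median log-CPM (1.5) removed 0. DESeq2 1.42.0 and limma 3.58.1 (voom with TREAT at 0.18) were alternatives. For shares, an exact permutation test over embryos was run in scipy 1.17.1. Named genes were the 10 largest rises and falls that passed in members, every gene of 25 lists that passed in members or in the comparison with other cells, the 15 genes with the largest ratio to other cells (CPM plus 1, detected in at least 30% of members) and the 10 largest ratios each way between Mrc1/Pf4-positive and -negative members (CPM plus 10). The 9 rule genes were given no test. Some genes that met the rule are not reported here. Intervals and floors (3 counts) cover counting error only. Members' sums were shallow: the edgeR step, tested on simulated data, recovered 24.2% of 95 genes changed 4-fold and 53.6% of 97 changed 8-fold among 6766 genes in members, of whose calls 2.60% were false. The comparison with other cells recovered 11.8% of 93 and 54.1% of 98 among 6749 genes, of whose calls 1.54% were false. In 200 simulations each, the permutation test of shares passed in 6.50% where nothing differed and in 100% at a 3-fold difference.

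Promoters were RefSeq's (GRCm38.p6). Alternatives covered normalization, gene filter, tool, the rule's threshold, mixed cells, thinning to 1000 or 2000 UMIs, sex, libraries or name prefixes as samples, each embryo left out, and, chosen after seeing the data, the left-out library 26, a split by summed genes and fits within each kind and genotype.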

Additional observations from a re-analysis of the deposited data

Results flagged for a closer look

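Single samples stood far from the rest of their group (Dixon's test at 95%) in 17 of the 74 groups tested. The test flags about 1 in 20 groups of normally distributed values, which these low counts are not. A group in which only 1 embryo held any UMIs is always flagged. This was so for *Agrp*, *Npy*, *Igf2* and *Col1a2* in control and *Npy*, *Slc16a3* and *Socs3* in *Eed-cKO*. The 17 therefore cannot be set against that rate. Embryo 3 did so for the member share (2.53% of cells) and the Mrc1/Pf4-positive share (2.43%) in *Eed-cKO*. Among control embryos, the outlying sample was the highest for *Agrp* (566 CPM), *Npy* (5514 CPM), *Ccl6* (1175 CPM), *Csf1* (1884 CPM), *Spp1* (3391 CPM), *Ndn* (635 CPM), *Igf2* (75.8 CPM) and *Col1a2* (37.6 CPM). Among *Eed-cKO* embryos it was the highest for *Igf2* (3091 CPM), *Col1a2* (1702 CPM), *Olfml3* (171 CPM), *Cebpa* (161 CPM), *Npy* (60.1 CPM), *Slc16a3* (53.6 CPM) and *Socs3* (5.01 CPM). For *Agrp* and *Npy* in control and for *Igf2* and *Col1a2* in *Eed-cKO* the outlying embryos were those in which 1 cell held most of the UMIs.

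The genotype difference of 23 named genes differed between members and other cells of the same embryos (edgeR's quasi-likelihood test with Benjamini-Hochberg adjustment; values are log2 differences, members minus other cells). The largest was *Socs3* (-6.59), followed by *Slc16a3* (-5.58), *Olfml3* (-4.91), *Cebpa* (-4.35) and *Crybb1* (-4.26). *Egr2* (-3.89), *Cd9* (-3.86), *Atf3* (-3.85), *Klf4* (-3.69) and *Sparc* (-3.21) came next. *Cebpb* (-2.99), *Ier3* (-2.98), *Csf1* (-2.97), *Ctsz* (-2.60), *Abcg1* (-2.59), *Ctsd* (-2.46), *Itgb5* (-2.45) and *Lgals1* (-2.31) were smaller. *Ctsl* (-2.18), *Zfp36* (-2.16), *Junb* (-2.01) and *Apoe* (-1.90) were the smallest of those below 0, and *Ndn* (2.70) was above it.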

How the results depend on the processing

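No share passed at its adjusted p under any alternative run (the lowest p was 0.0272, adjusted 0.124, for negative members thinned to 1000 UMIs), but directions turned. The member share of *Eed-cKO* minus control, 0.138 percentage points, was -0.178 with cells thinned to 2000 UMIs, -0.176 at 1000 UMIs, -0.0978 without mixed cells and -0.0334 without library 26; leaving out each embryo gave -0.0699 (without *Eed-cKO* embryo 3) to 0.200. The positive share was -0.0625 at 2000 UMIs, the negative share 0.00488 in males only, and the cycling share 4.97 at 1000 UMIs and 3.33 with 3 cycling genes asked. The correlation with leptomeningeal cells was 0.471 within *Eed-cKO* and 0.510 without mixed cells, neither past the threshold, and 0.398 to 0.612 with each embryo left out (not past it without control embryos 3, 4 or 5 or *Eed-cKO* embryos 3 or 9). The 18 calls in members became 0 with at least 50 UMIs asked, 0 without library 26, 1 in negative members (*Npy*), 5 in embryos with at least 5 members, 6 in microglia-gene cells, 10 in macrophage-gene cells, 47 with limma-voom and TREAT and 76 with libraries as samples. They ran from 0 (without *Eed-cKO* embryo 3) to 43 (without control embryo 1) with 1 embryo left out, with 42 without *Eed-cKO* embryo 1, 31 without control embryo 5 and 29 without *Eed-cKO* embryo 5. The 3582 calls in other cells became 1608 with limma-voom and TREAT and 6134 with libraries as samples (2893 to 3795 with 1 embryo left out). The 49 calls of the comparison became 14 with at least 50 UMIs asked, 86 with any gene and 18 without the members of library 26. With 1 embryo left out they ran from 13 (without *Eed-cKO* embryo 3) to 112 (without *Eed-cKO* embryo 5). They were 85 without control embryo 1, 32 without control embryo 6 and 25 without *Eed-cKO* embryo 8. The causes were not tested. Called values of named genes kept their direction in every fit: of 445 fits in members 140, and of 416 of the comparison 74, no longer passed. For 11 fits DESeq2 gave no adjusted p. The comparison of other cells has no value without mixed cells, which are members. Depth limits the member sums to large folds.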

Other observations

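Some genes passed without the mixed members but not with them. *Il1b*, the interleukin-1 beta gene, had a log2 fold change of 3.09 (edgeR's quasi-likelihood test, adjusted p = 0.0406), *Nts*, the neurotensin gene, -4.92 (edgeR, adjusted p = 0.0406), and the protease inhibitor gene *Serpine2* -2.59 (edgeR, adjusted p = 0.0195). Complement *C3* and the CSF1R ligand gene *Il34* were at 0 in all members, at 2.49 and 2.81 CPM in the other cells.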
